A study of Homo sapiens with 18 samples.

Results

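The let-7 and miR-98 family was examined in HCT116 cells, a human colorectal carcinoma line, as the cells grew from sparse to stacked layers. The members are the mature 5p arms let-7a, let-7b, let-7c, let-7d, let-7e, let-7f, let-7g and let-7i, together with miR-98-5p. They were chosen by name, every let-7 5p arm that the small RNA tables list plus miR-98-5p, which gave 9 members of 2167 mature miRNAs. Beside them stand 3 mRNAs, LIN28B, HMGA2 and IGF2BP1, out of 38055 genes of the whole transcriptome table. All cells were wild type and untreated. They were harvested at day 3 (50% confluency), day 5 (250% confluency) and day 7 (labelled 400% confluency), and each day has 3 small RNA libraries labelled as biological replicates. Whole transcriptome values were analysed for day 3 and day 5, with 3 libraries each, and day 7 was not analysed here. Every group is the same cell line and shares its culture medium, so time in culture and cell density cannot be told apart.

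let-7 miRNAs are among the most conserved animal miRNAs, and they are best known as repressors of growth-promoting and fetal genes. A primary let-7 transcript is cut by DROSHA in the nucleus, exported as a hairpin, and cut by DICER1 into 5p and 3p strands, of which the 5p strand is usually loaded into Argonaute. LIN28A and LIN28B bind let-7 precursors and block their maturation, while LIN28B, HMGA2 and IGF2BP1 mRNAs are themselves let-7 targets with several sites in their 3′UTRs, so that LIN28B and let-7 repress each other.

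The mature sequences are shown because the members are told apart by very few bases, while the part that selects targets is common to all. RefSeq held all 9 members (GRCh38.p14), here 5′ to 3′ with the seed, bases 2 to 8, in capitals.
let-7a-5p: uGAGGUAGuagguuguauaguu
let-7b-5p: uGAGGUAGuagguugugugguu
let-7c-5p: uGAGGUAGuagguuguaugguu
let-7d-5p: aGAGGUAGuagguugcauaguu
let-7e-5p: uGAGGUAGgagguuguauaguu
let-7f-5p: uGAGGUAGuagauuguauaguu
let-7g-5p: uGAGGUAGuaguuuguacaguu
let-7i-5p: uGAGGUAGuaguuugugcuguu
miR-98-5p: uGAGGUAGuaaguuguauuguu

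All 9 members carry the seed GAGGUAG and are 22 bases long, and 14 of the 22 positions hold the same base in every member. Counting positions from 1 at the 5′ end and giving the base of let-7a-5p first, let-7c-5p differs from it by A19G, let-7e-5p by U9G and let-7f-5p by G12A. let-7b-5p differs by A17G and A19G, let-7d-5p by U1A and U16C, let-7g-5p by G12U and U18C, and miR-98-5p by G11A and A19U. let-7i-5p is the farthest, with G12U, A17G, U18C and A19U. Members that differ by 1 base can exchange reads when a read carries an error, which touches let-7a-5p, let-7c-5p, let-7e-5p, let-7f-5p and let-7b-5p first. Among the other mature miRNAs of RefSeq, miR-4458 and miR-4500 carry the same seed.

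The 9 members come from 12 hairpins (GRCh38, 1-based). On chromosome 9 let-7a-1 (94175957 to 94176036, plus strand) lies in an exon of MIRLET7A1HG, and let-7f-1 (94176347 to 94176433) and let-7d (94178834 to 94178920) follow in its intron, 390 and 2877 bases downstream. On chromosome X miR-98 (53556223 to 53556341, minus strand) and let-7f-2 (53557192 to 53557274) lie in an intron of HUWE1, a ubiquitin ligase gene. let-7a-3 (46112749 to 46112822) and let-7b (46113686 to 46113768) lie within MIRLET7BHG on chromosome 22, and let-7a-2 (122146522 to 122146593) within MIR100HG on chromosome 11. let-7c (16539828 to 16539911) lies in an intron of MIR99AHG on chromosome 21, let-7e (51692786 to 51692864) within SPACA6 on chromosome 19, let-7g (52268278 to 52268361) in an intron of WDR82 on chromosome 3 and let-7i (62603686 to 62603769) in an intron of MIRLET7IHG on chromosome 12. let-7a-5p is the same sequence from 3 hairpins and let-7f-5p from 2, so their values cannot be assigned to a locus.

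The small RNA values are the deposited log2 values, on a transformed scale whose name is not given in the sources used here, so a difference of 1 is not necessarily a doubling of reads. let-7a-5p, the most abundant member, stood at 16.05, 16.14 and 15.73 on day 3, at 16.18, 16.28 and 16.28 on day 5 and at 16.74, 16.85 and 16.81 on day 7. let-7f-5p followed with 15.25, 15.29 and 15.09 on day 3, with 15.52, 15.54 and 15.54 on day 5 and with 15.87, 15.91 and 15.94 on day 7. let-7c-5p, the least abundant, stood at 7.76, 7.87 and 7.59, then at 7.85, 7.94 and 7.94, and then at 8.71, 8.76 and 8.78. In each of these 3 members every day 7 library lay above every library of day 3 and day 5, and replicate 3 of day 3 was the lowest library. The share of all miRNAs that separate in this way was not computed. let-7d-5p rose from 12.61, 12.65 and 12.41 on day 3 to 13.24, 13.35 and 13.33 on day 7, with 12.82, 12.94 and 12.96 on day 5. let-7i-5p gave 13.76, 13.83 and 13.57 on day 3, 13.87, 13.87 and 13.81 on day 5, and 14.12, 14.18 and 14.18 on day 7. miR-98-5p gave 13.11, 13.15 and 12.84 on day 3, 13.20, 13.33 and 13.26 on day 5, and 13.59, 13.61 and 13.59 on day 7. The order of the levels was let-7a, let-7f, let-7g, let-7i, miR-98, let-7d, let-7b, let-7e and let-7c on every day. On day 3 let-7g-5p (13.75 ± 0.15, SD, n = 3) and let-7i-5p (13.72 ± 0.13) overlapped, as did let-7b-5p (12.03 ± 0.32) and let-7e-5p (11.82 ± 0.25), while on day 5 and day 7 no neighbours in the order overlapped. Levels of different miRNAs also depend on how well each sequence is ligated, and they are not corrected for it.

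**Figure D1:**
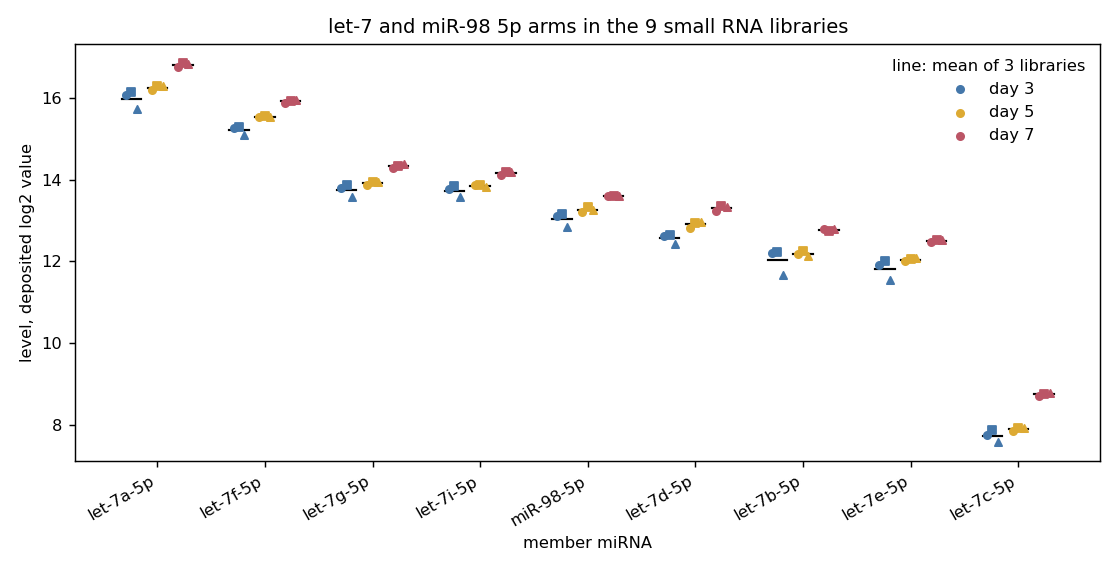
Deposited log2 value (vertical axis) of each of the 9 members (horizontal axis) in the 9 small RNA libraries, coloured by day, with circles, squares and triangles for replicates 1, 2 and 3 and a line at the mean of 3 libraries. The day 7 libraries lie above the others in all 9 members, and let-7c-5p lies near 8 where the other members lie above 11. On this scale 45.3% of 559 miRNAs tested were called higher at day 7 than at day 3. The share of all miRNAs without overlap was not computed.

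At day 7 the whole family stood higher than at day 3 as the values were deposited, but less so relative to all miRNAs. On the deposited scale limma called all 9 members higher, beside 45.3% of the 559 miRNAs tested. The log2 difference was 1.01 for let-7c-5p, 0.83 ± 0.13 (SE) for let-7a-5p, 0.75 for let-7d-5p, 0.74 for let-7b-5p and 0.70 for let-7f-5p, and then 0.68 for let-7e-5p, 0.58 for let-7g-5p, 0.56 for miR-98-5p and 0.44 ± 0.11 for let-7i-5p. The adjusted p-values of limma ran from 0.000269 for let-7c-5p to 0.00979 for let-7i-5p. The summed value of all mature miRNAs also rose, from between 1542090 and 1947370 on day 3 to between 2452610 and 2600750 on day 7. The median difference of all miRNAs tested was therefore 0.30 as deposited and -0.20 when each library was scaled to its own total.

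Scaled to library totals, 5 of the 9 members were called higher at day 7 than at day 3, beside 16.6% of all miRNAs. These were let-7c-5p with 0.51 ± 0.06 (limma adjusted p = 0.00131), let-7a-5p with 0.33 ± 0.06 (0.00464), let-7d-5p with 0.25 (0.0155), let-7f-5p with 0.19 (0.0452) and let-7e-5p with 0.18 (0.0482). let-7b-5p was at 0.24 (limma adjusted p = 0.0649), let-7g-5p at 0.08 and miR-98-5p at 0.06. let-7i-5p was at -0.07, so its direction turned with the scale, but it stood above the median of -0.20 like the other members. In bulk RNA a change in the level per cell and a change in the share of cells that hold the miRNA cannot be told apart.

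At day 5 all 9 members pointed up relative to day 3, on the deposited scale by less than at day 7. Scaled to library totals let-7a-5p, let-7b-5p and let-7c-5p differed less from day 3 than at day 7, and the other 6 members more. On the deposited scale limma called none of the 9 members (0), beside 8.53% of 539 miRNAs called higher. Before adjustment 2 members passed the threshold. They were let-7d-5p (log2 difference 0.35, limma adjusted p = 0.0719) and let-7f-5p (0.32, limma adjusted p = 0.0719). No count test could be run, as the table gives no counts. In all 9 members the day 3 libraries spread more widely than those of day 5, with replicate 3 the lowest. Scaled to library totals, 4 of the 9 were called higher, beside 13.4% of all miRNAs. These were let-7d-5p with 0.34 ± 0.06 (limma adjusted p = 0.0134), let-7f-5p with 0.31 ± 0.07 (0.0225), let-7a-5p with 0.26 ± 0.06 (0.0222) and miR-98-5p with 0.22 ± 0.05 (0.0257). let-7e-5p missed the threshold at 0.22 (limma adjusted p = 0.0535), and let-7b-5p, let-7c-5p, let-7g-5p and let-7i-5p lay between 0.12 and 0.16. Without replicate 3 of day 3 the deposited scale gave 1 call, let-7f-5p, and let-7b-5p turned to -0.03.

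Between day 5 and day 7 the deposited scale and the library totals gave different pictures. As deposited, all 9 members were called higher at day 7, beside 39.3% of 567 miRNAs, with log2 differences from 0.31 for let-7i-5p to 0.84 for let-7c-5p and limma adjusted p-values from 0.000242 to 0.0212. Leaving out day 7 replicate 1 ended the call of miR-98-5p, and leaving out day 5 replicate 1 or 3 or day 7 replicate 2 or 3 ended those of let-7i-5p and miR-98-5p, so that 8 or 7 calls were left. Scaled to library totals, let-7c-5p alone was called higher (0.35 ± 0.05, limma adjusted p = 0.0016), beside 10.6% of all miRNAs. let-7i-5p (-0.18 ± 0.06, limma adjusted p = 0.0261) and miR-98-5p (-0.16 ± 0.04, limma adjusted p = 0.0177) were called lower, beside 43.4%. let-7d-5p, let-7e-5p, let-7f-5p and let-7g-5p also changed sign with the scale and lay between -0.12 and -0.03. The comparisons share their libraries, so the 3 sets of differences are not separate observations.

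**Figure D2:**
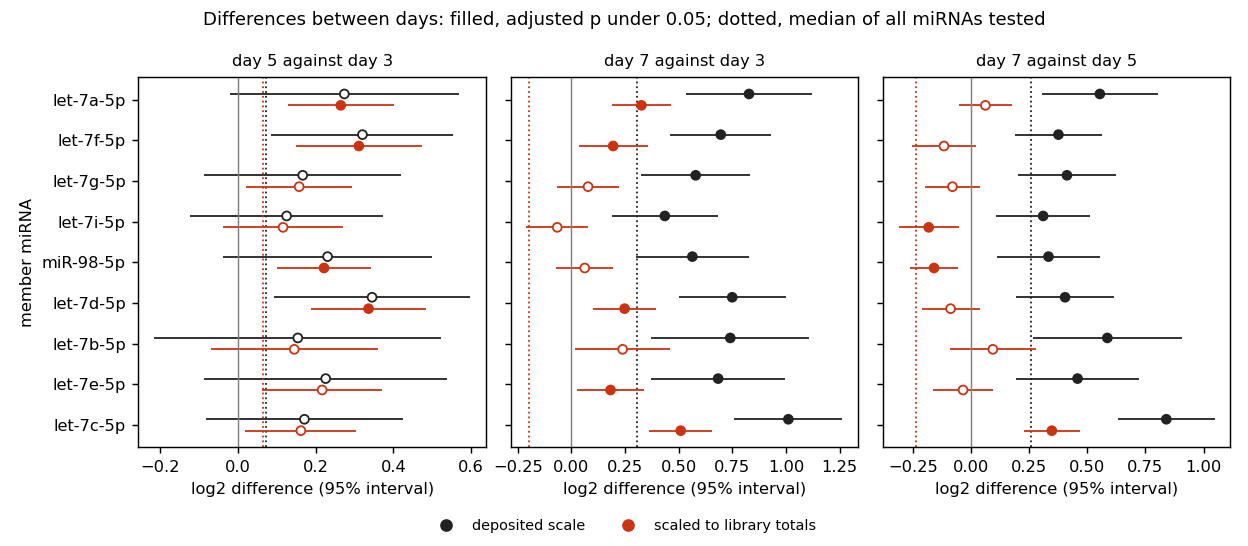
Log2 difference (horizontal axis, with 95% interval) of each member (vertical axis) in the 3 comparisons between days, on the deposited scale in black and scaled to library totals in red, with filled points for an adjusted p under 0.05 and dotted lines at the median of all miRNAs tested. At day 7 against day 3 the black points of all 9 members are filled, between 0.44 and 1.01, and 5 of the red points are filled, while let-7i-5p moves to -0.07.

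Shares are computed inside each library, so a scaling factor common to a library does not enter them. Whether other steps of the unnamed transformation enter them is not known. The family held 8.53%, 8.54% and 8.62% of the summed mature miRNA value on day 3, and 10.3%, 9.86% and 10.4% on day 5. On day 7 it held 9.88%, 9.80% and 10.2%, so that all libraries of both later days lay above those of day 3, and day 5 and day 7 overlapped. Relative to day 3 the mean share was 1.19-fold higher on day 5 and 1.16-fold higher on day 7. The shares come from values back-transformed as if the scale were plain log2, and no test was made of them.

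Within the family the makeup shifted slightly. let-7a-5p made up 42.3% ± 1.28 (SD, n = 3) of the family on day 3, 42.7% ± 0.683 on day 5 and 45.6% ± 0.562 on day 7. let-7f-5p stood at 25.0% ± 1.16, 26.1% ± 0.477 and 24.6% ± 0.323. Both together made up from 67.2% to 70.5% of the family in every library, so a pair of sequences that differ by 1 base dominate the pool. let-7i-5p went from 8.90% ± 0.241 on day 3 over 8.11% ± 0.317 to 7.31% ± 0.0421 on day 7, let-7g-5p from 9.03% ± 0.153 over 8.47% ± 0.0378 to 8.20% ± 0.118, and miR-98-5p from 5.51% ± 0.0333 over 5.40% ± 0.129 to 4.95% ± 0.114. The libraries of day 7 did not overlap with those of day 3 for these 3 members. Nor did they for let-7a-5p and let-7c-5p, whose shares were higher on day 7. How often shares of other miRNAs separate in this way was not computed. Shares of the same total are tied, so a higher share of let-7a-5p by itself lowers those of others. As deposited, let-7i-5p, let-7g-5p and miR-98-5p were higher on day 7 than on day 3, by 0.44, 0.58 and 0.56. let-7d-5p held 3.97%, 4.22% and 4.06%, let-7b-5p 2.77%, 2.56% and 2.80%, and let-7e-5p 2.38%, 2.32% and 2.32%, with day 3 and day 7 overlapping in each. let-7c-5p was the rarest at 0.141% ± 0.00416, 0.132% ± 0.00114 and 0.172% ± 0.00154.

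**Figure D3:**
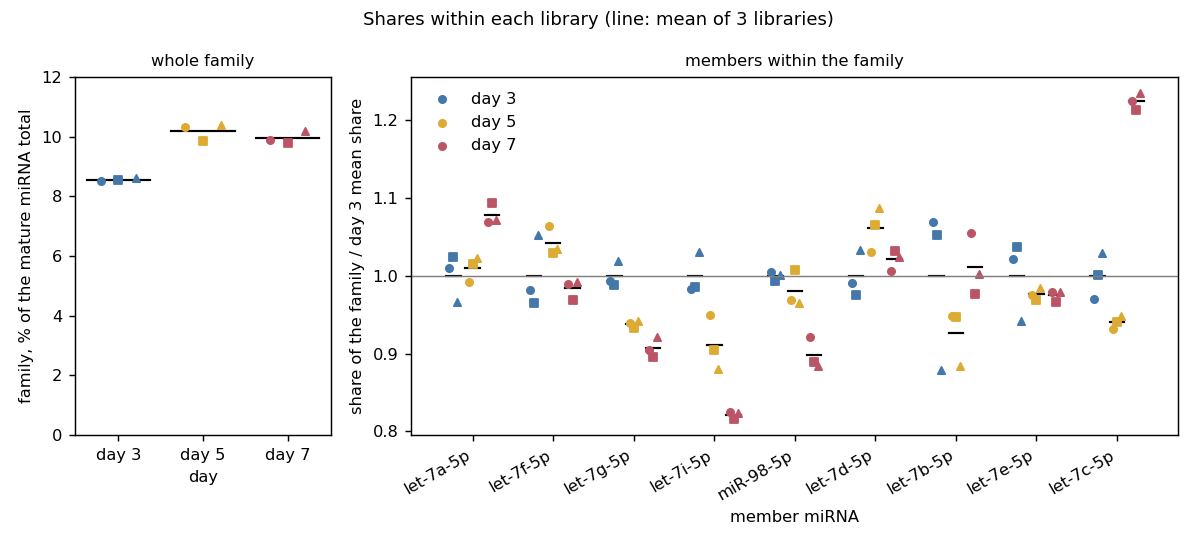
Left, the family as a percentage of the summed mature miRNA value in each library by day. Right, each member's share of the family divided by its mean day 3 share (vertical axis) in the 9 libraries, with shapes for replicates and lines at means. The family rises from a mean of 8.56% to 10.2% and 9.95%, and within it let-7c-5p ends at 1.22 and let-7i-5p at 0.821 of its day 3 share.

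let-7c-5p, which gave the largest difference of the 9 members in both comparisons with day 7, was also the rarest. Its 3p arm was at the bottom of the scale, between -2.32 and -1.94 in all 9 libraries, and its host transcript MIR99AHG was at 0 to 1.42 in the whole transcriptome libraries of day 3 and day 5. let-7c-5p amounted to between 0.319% and 0.354% of the let-7a-5p value on day 3, between 0.308% and 0.313% on day 5 and between 0.369% and 0.383% on day 7. How many of its reads were let-7a reads with an error at position 19 was not tested.

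Some 3p arms of the same hairpins rose with the 5p arms and others did not. On day 7 against day 3, as deposited, let-7a-5p gained 0.83, while let-7a-3p was at -0.26 ± 0.12 (limma adjusted p = 0.103) and let-7a-2-3p at -0.16 ± 0.11 (0.238). let-7f-1-3p was at 0.02, let-7f-2-3p at 0.21 and let-7g-3p at 0.05, none of them called. let-7d-3p, the most abundant 3p arm at 10.44 to 10.56 on day 3, rose by 0.76 ± 0.10 (limma adjusted p = 0.000622), which equals the 0.75 of its 5p arm within their errors. let-7b-3p (0.30), let-7i-3p (0.38) and miR-98-3p (0.35) were also called higher, beside 45.3% of all miRNAs tested. let-7e-3p was at 0.29 and was not called (limma adjusted p = 0.0618). Scaled to library totals, let-7a-3p (-0.76), let-7a-2-3p (-0.66), let-7f-1-3p (-0.48), let-7g-3p (-0.45), let-7f-2-3p (-0.30) and let-7e-3p (-0.21) were called lower, beside 40.4% of all miRNAs.

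The ratio of 5p to 3p within a library is free of a scaling factor common to the library, and it was examined after these values had been seen. Of 10 arm pairs tested, 7 had a higher ratio on day 7 than on day 3, beside 24% of 150 arm pairs of all miRNAs. let-7a-5p over let-7a-3p stood at a log2 ratio of 9.13, 9.14 and 9.02 on day 3, 9.45, 9.70 and 9.68 on day 5 and 10.23, 10.07 and 10.26 on day 7. The groups did not overlap, and the difference between day 7 and day 3 was 1.09 ± 0.09 (SE, limma adjusted p = 0.000496). let-7a-5p over let-7a-2-3p gained 0.99 ± 0.09 (0.000496), let-7f-5p over let-7f-1-3p 0.68 ± 0.09 (0.0017), let-7g-5p over let-7g-3p 0.53 ± 0.11 (limma adjusted p = 0.012) and let-7f-5p over let-7f-2-3p 0.49 ± 0.09 (0.00571). let-7b (0.44) and let-7e (0.39) completed the 7. let-7d, with -0.01 (95% interval -0.28 to 0.26), let-7i, with 0.05 (-0.17 to 0.27), and miR-98, with 0.21 (0.00 to 0.42, limma adjusted p = 0.0961), were not called.

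On day 5, 3 of the 10 pairs were called higher, beside 9.79% of 143 arm pairs. let-7f-5p gained 0.53 ± 0.09 over let-7f-1-3p (limma adjusted p = 0.00751) and 0.45 ± 0.08 over let-7f-2-3p (0.0139), and let-7a-5p gained 0.51 ± 0.10 over let-7a-3p (0.0213). Leaving out replicate 1 of day 3 or replicate 3 of day 5 reduced these to 1 call, and leaving out replicate 2 of day 5 to 2. Pairs that share let-7a-5p or let-7f-5p are not independent, and the 3p arms lie up to 10 log2 units below their 5p arms, where the transformed scale can compress differences.

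**Figure D4:**
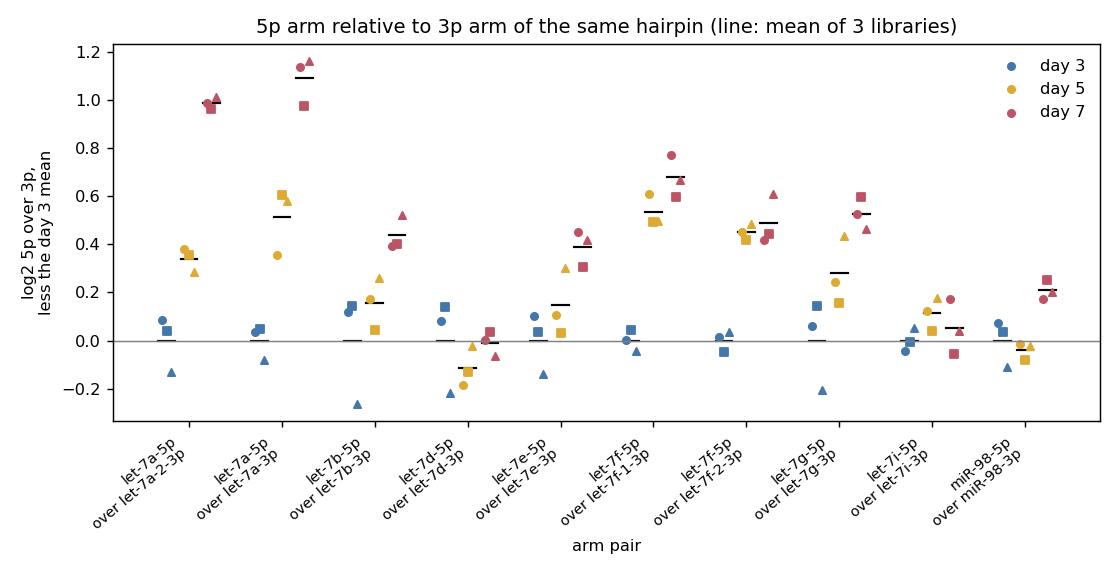
Log2 ratio of each 5p arm to a 3p arm of its hairpin, less the mean of day 3 (vertical axis), for 10 arm pairs (horizontal axis) in the 9 libraries, with shapes for replicates and lines at means. The let-7a pairs reach 0.99 and 1.09 on day 7, while the let-7d pair is back at -0.01.

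3 of the let-7 hairpins sit beside miR-99/100 and miR-125 hairpins, and from day 3 to day 5 these neighbours moved apart from let-7. miR-100-5p, from the MIR100HG locus of let-7a-2, stood at 18.17, 18.28 and 17.72 on day 3, at 17.41, 17.59 and 17.59 on day 5 and at 18.05, 18.22 and 18.17 on day 7. Scaled to library totals, miR-100-5p (-0.54, limma adjusted p = 0.00782), miR-99a-5p (-0.61, 0.0101), miR-99b-5p (-0.27, 0.0329) and miR-125b-5p (-0.30, 0.0196) were called lower on day 5, beside 11.7% of all miRNAs. miR-125a-5p was at -0.11 (limma adjusted p = 0.224). On the deposited scale the call held for miR-99a-5p only of these 5 (-0.60, limma adjusted p = 0.0395). The log2 ratio of let-7e-5p to miR-99b-5p, which share the chromosome 19 locus, was -4.02 ± 0.04 (SD, n = 3) at day 3, -3.53 ± 0.09 at day 5 and -3.38 ± 0.07 at day 7. That of let-7c-5p to miR-99a-5p on chromosome 21 went from 0.59 ± 0.19 over 1.36 ± 0.09 to 1.70 ± 0.12. In both ratios the libraries of day 3 lay below all those of day 5 and day 7. let-7e-5p to miR-125a-5p went from -1.94 ± 0.04 over -1.62 ± 0.04 to -1.84 ± 0.05, so that this neighbour had nearly caught up on day 7. In this ratio too the libraries of day 3 lay below all those of day 5 and day 7. The same held for let-7a-5p to miR-100-5p (means -2.09, -1.29 and -1.35) and to miR-125b-5p (2.21, 2.77 and 2.60). let-7a-5p also comes from other loci. How many ratios between other miRNAs separate in this way was not computed, and no test was made of these ratios.

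Among 265 other miRNAs averaging at least 100 on the linear scale, the levels of miR-1303 (Pearson r = 0.953), miR-625-3p (0.949) and miR-210-5p (0.94) were most like the log2 family share over the 9 libraries. miR-1303 averaged 9.02, 9.56 and 9.38 on days 3, 5 and 7 and miR-625-3p 8.10, 8.71 and 8.79, while miR-210-5p rose from 6.68 to 9.26 and 9.72. The 9 points are 3 clusters of replicates, and the deposited scaling enters 1 side only, so these values describe likeness and no more. The seed relative miR-4458 was at -0.42 to 1.15 on the log2 scale, against 7.59 or more for every member, and miR-4500 was not among the mature miRNAs listed.

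Of the 3 mRNAs of the LIN28 axis, LIN28B was lower on day 5 and the other 2 were not called. The whole transcriptome signal is the deposited normalized value, in which 1 read is worth 0.618 to 1.42. LIN28B, the let-7 binding protein expressed in many tumours, stood at 27.2, 11.7 and 18.4 on day 3 and at 5.42, 5.36 and 4.14 on day 5. These are 31, 19 and 13 reads against 5, 5 and 4 reads, so the groups did not overlap but the counts are small. On the log2(value + 1) scale the difference was -1.69 ± 0.29 (SE, limma adjusted p = 0.00373), beside 27.6% of 20129 genes called lower. LIN28B entered the test through its day 3 libraries alone, so a lower value on day 5 was built into its selection and the call is no support by itself. With no filter on low values the difference was -1.69 (limma adjusted p = 0.0157). When any day 3 library was left out LIN28B no longer met the filter.

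HMGA2, a chromatin protein gene of fetal tissue and the textbook let-7 target, was abundant and did not move beyond its spread. It stood at 18998, 18494 and 15080 on day 3 and at 18314, 19040 and 18991 on day 5, with overlapping groups and a difference of 0.11 (95% interval -0.16 to 0.38, limma adjusted p = 0.437). IGF2BP1, an oncofetal RNA-binding protein gene, stood at 39.5, 22.3 and 43.9 on day 3 and at 46.6, 39.7 and 50.7 on day 5. Its difference of 0.41 had a 95% interval from -0.23 to 1.06 (limma adjusted p = 0.225), which spans both directions, on 31 to 49 reads per library. Per kilobase of exon (GENCODE release 44), the mean signal of day 3 was 1163 for HMGA2, 3.66 for IGF2BP1, 5.49 for LIN28A and 3.22 for LIN28B. HMGA2 was thus the only one of these 4 that was well expressed, and LIN28B fell to 0.837 per kilobase on day 5. LIN28A, the paralogue of LIN28B, stood at 15.8, 24.1 and 25.5 on day 3 and 23.9, 32.2 and 23.8 on day 5, and was not called (0.29, limma adjusted p = 0.29).

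The let-7 sites of these 3 mRNAs are shown because they are what ties the mRNAs to the family. The match searched was CTACCTC, the complement of the seed on the mRNA strand, in the 3′UTR of the canonical GENCODE transcript, and a following A makes it an 8mer. Each of the 3 held 4 matches. LIN28B had 2 8mers at chr6:105078827-105078834 and chr6:105081436-105081443, HMGA2 had 1 at chr12:65963313-65963320, and IGF2BP1 had 3 at chr17:49051076-49051083, chr17:49053713-49053720 and chr17:49054367-49054374 (GRCh38, plus strand). They are printed in that order with 10 bases on either side and the match in capitals.
LIN28B, first 8mer: gttgcaaagtCTACCTCAtgcaagtata
LIN28B, later 8mer: cagcaaaaggCTACCTCAtagttgatac
HMGA2, 8mer: cgttcgatttCTACCTCAgcagcagttg
IGF2BP1, first 8mer: gcgaagtaaaCTACCTCAaggtatgaag
IGF2BP1, middle 8mer: gtgctagtaaCTACCTCAcagagcccca
IGF2BP1, last 8mer: aatggattaaCTACCTCAatccttacag

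Of all 19229 canonical 3′UTRs, 9.71% held at least 1 match and 1.14% at least 2. Among 3′UTRs within 80 to 120% of the same length, at least 4 matches were held by 0.0904% of those like HMGA2, 0.196% of those like LIN28B and 0.533% of those like IGF2BP1. HMGA2, LIN28B and IGF2BP1 were known as let-7 targets with several sites before this search, so their many matches were given in advance. A match describes letters and does not show that a site is used in these cells.

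Genes that make or guard mature let-7 were called about as often as genes at large on day 5. Of 14 genes on the let-7 processing list, all tested, 4 were called higher and 4 lower, beside 29.3% and 27.6% of all genes, with a median log2 difference of 0.04 beside 0.01 over all genes. The 4 lower genes include LIN28B, whose lower value was built into its selection. KHSRP, which binds the let-7 loop and promotes processing, rose from 4853, 6378 and 6984 to 13814, 12750 and 13148 (1.14 ± 0.15, limma adjusted p = 0.00122). TRIM25, a cofactor of LIN28A with the uridylating enzymes, rose from 2740, 3190 and 3421 to 5703, 5241 and 5444 (0.81 ± 0.11, 0.00124). TUT4, which adds the uridine tail to LIN28-bound precursors, gained 0.35 (limma adjusted p = 0.014) and DROSHA 0.30 (0.0117). These 4 genes act on different sides of let-7 maturation. The lower genes beside LIN28B were PRKRA, a DICER1 partner (-0.61, limma adjusted p = 0.00114), HNRNPA1, a competitor of KHSRP on the let-7a loop (-0.38, 0.00508), and DICER1 itself (-0.32, 0.00928), which scaled to library totals was at -0.25 (0.0528). TUT7, DIS3L2, DGCR8, XPO5, TARBP2 and LIN28A lay between -0.24 and 0.29 and were not called. With no filter on low values TUT4 (limma adjusted p = 0.083), DROSHA (0.0899) and DICER1 (0.0779) lost their calls.

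On the list of 26 known let-7 targets, 24 were tested, 11 were called higher and 5 lower on day 5, beside 29.3% and 27.6% of all genes. The median log2 difference was 0.36, beside 0.01 over all genes and 0.12 over the 13050 tested genes with a canonical 3′UTR. ARID3A, a DNA-binding protein gene, rose from 298.5, 299.8 and 290.6 to 1154, 1266 and 1283 (2.05 ± 0.08, limma adjusted p = 0.000102). IGF1R, the IGF1 receptor gene, rose from 509.2, 528.5 and 527.3 to 1760, 1902 and 1836 (1.81 ± 0.07, 0.000117), and HMGA1 from 14863, 19196 and 23854 to 50102, 51486 and 51228 (1.43 ± 0.17, 0.000999). CCND1 (1.23), MYC (1.03), ARID3B (1.01), IGF2BP2 (0.96), PLAGL2 (0.51) and IGF2BP3 (0.38) were also called higher. With no filter on low values IGF2BP3 lost its call (limma adjusted p = 0.0571). THBS1 (0.73, limma adjusted p = 0.035) and CDC34 (0.51, 0.0484) were called too, but leaving out single libraries ended the THBS1 call in 4 of 6 cases and the CDC34 call in 5 of 6. CDC25A, a cell cycle phosphatase gene (-0.85), and NRAS (-0.74) were among the lower genes, as were DICER1 and LIN28B. For LIN28B the lower value was built into its selection. CDK6 (0.24), TGFBR1 (0.19), E2F2 (-0.12), E2F5 (-0.05) and NR6A1 (-0.05) were not called by limma, while edgeR on recovered reads called CDK6 and TGFBR1 higher. TRIM71 and CCND2 were too low to test, at 2.63 to 7.25 and 0 to 6.43. Many of these genes are growth regulated and have other regulators, and the list was compiled with results of these data known.

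The target list differs from the site itself. Of the 26 listed genes 19 held a match and 9 at least 2, with 6 in TRIM71, 5 in NR6A1 and none in, among others, CCND1, MYC, CDK6, DICER1, CCND2 and THBS1. Across 13050 tested genes with a canonical 3′UTR, the median log2 difference on day 5 was 0.11 for 11608 genes with no match, 0.18 for 1269 genes with 1 match, 0.12 for 143 genes with 2, and 0.38 for 30 genes with 3 or more, beside 0.12 over all of them. The genes with 1 match were called higher in 41.7% and lower in 25.0%, and those with no match in 37.3% and 28.4%. Their 3′UTRs differ in length, with medians of 2839 and 1130 bases. Among 3′UTRs of at least 2000 bases the medians were 0.18 with a match (973 genes) and 0.12 without (3610 genes). No test was made of these differences, and the part of 3′UTR length in them was not tested.

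**Figure D5:**
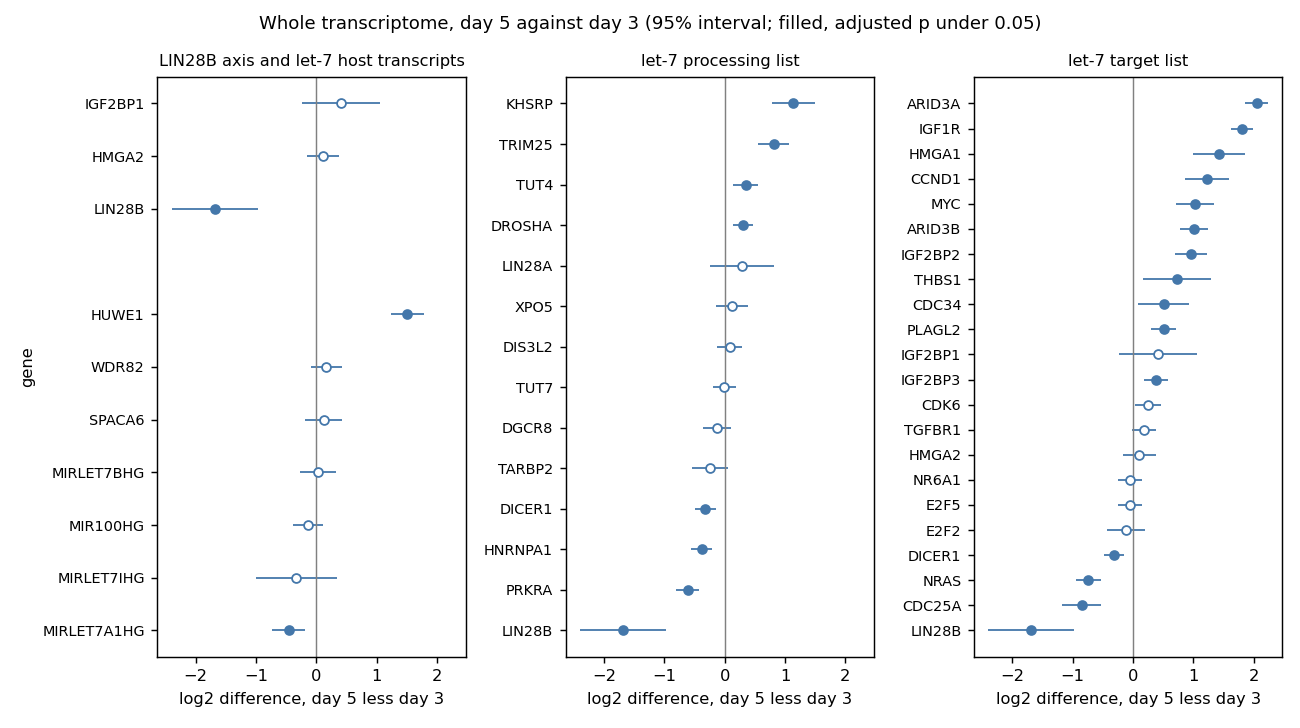
Log2 difference between day 5 and day 3 (horizontal axis, 95% interval) of genes that were tested (vertical axis), for the LIN28B axis with the let-7 host transcripts, the let-7 processing list and the let-7 target list, with filled points for an adjusted p under 0.05. LIN28B, at -1.69, is in 3 of the groups, and ARID3A at 2.05 and IGF1R at 1.81 lead the target list.

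Few of the host transcripts were called. Of 9 listed, 7 were tested, 1 was called higher and 1 lower, beside 29.3% and 27.6% of all genes, with a median of 0.03. HUWE1, which holds let-7f-2 and miR-98, rose from 11678, 14502 and 14596 to 38543, 38013 and 38912 (1.51 ± 0.11, limma adjusted p = 0.000238). MIRLET7A1HG, which holds let-7a-1, let-7f-1 and let-7d, went from 479.4, 429.6 and 436.6 to 315.6, 370.8 and 295.1 (-0.46 ± 0.11, 0.0142), without overlap. With no filter on low values MIRLET7A1HG lost its call (limma adjusted p = 0.065). miR-98-5p and let-7d-5p, the members that each come from 1 of these loci, differed by 0.23 and 0.35 on the deposited small RNA scale in the same interval. Neither was called on that scale (limma adjusted p = 0.232 and 0.0719), while both were called higher when scaled to library totals. MIRLET7BHG (0.03), MIR100HG (-0.14), SPACA6 (0.12), WDR82 (0.17) and MIRLET7IHG (-0.33) were not called, although WDR82 was called higher when scaled to library totals (0.23, limma adjusted p = 0.0385). MIRLET7DHG was matched to no row of the table. The table also lists hairpin genes, of which MIRLET7A2 had the highest signal, at 64.1, 77.3 and 82.2 on day 3 and 77.0, 87.9 and 68.3 on day 5, with no call (0.06).

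The whole transcriptome libraries held 27470978 to 56689369 reads on genes, with the deepest and the shallowest both on day 3. Epithelial markers were present, with EPCAM at 6932 to 7403, and CDH1, KRT8, KRT18, KRT19 and CDX2, 5 of the 7 markers on the list, were higher on day 5, beside 29.3% of all genes. VIL1 was at 1.08 to 5.18. Of 6 markers of other cells, PTPRC and CD3E were at 0 to 2.14, DCN at 0 to 4.33 and COL3A1 at 8.04 to 31.1, PECAM1 was not matched, and COL1A1 rose from 483.4 to 566.3 on day 3 to 1092 to 1156 on day 5. Their part in the let-7 results was not tested.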

How the data were processed

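HCT116 cells were profiled by small RNA sequencing (9 libraries, 3 per day) and by whole transcriptome RNAseq (6 libraries analysed here, 3 each on days 3 and 5). Groups and replicate numbers came from the sample labels. For the small RNA tables the authors trimmed reads with Cutadapt, mapped them to mature and hairpin sequences of GRCh37 and normalized by TMM with edgeR. The deposited values are log2, include values below 0, and the transformation is not given in the sources used here. Both tables hold the same library values. The methods give a range of sequenced reads over all small RNA libraries, but the reads behind each value are not given, so counting error was not computed. For the whole transcriptome, the authors mapped strand-specifically to Ensembl genes of hg38 in CLC Genomics Workbench. The deposited signal gave whole reads for 100% of values (tolerance 0.1 read). Columns of the authors' own fold changes and p-values were not used.

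limma (version 3.58.1, R 4.3.3) was fitted across all features that reached 10 in 3 or more libraries, on the log2 values or on log2(signal + 1), which understates changes of low genes. P-values were adjusted by Benjamini-Hochberg over all features tested, with a threshold of 0.05. Day 7 against day 5 came from a fit of all 9 libraries. edgeR (4.0.16) and DESeq2 (1.42.0) on recovered reads were alternatives. Scripts were tested on simulated data. Tables and figures used Python 3.11.15, pandas 2.3.3, numpy 2.4.6 and matplotlib 3.10.9. Sequences came from RefSeq (GRCh38.p14) and GENCODE release 44. The named genes were all of the members, their 3p arms and cluster neighbours, and genes of the processing, target and host lists. For 2 genes of the target list single values are not reported here, though the list's counts and median include them. Members and lists were chosen with earlier results of these data known. Arm ratios, cluster ratios, 3′UTR matches and median centring were added after seeing the data.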

Additional observations from a re-analysis of the deposited data

How the results depend on the processing

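Library totals gave 4 member calls in place of 0 on day 5, 5 in place of 9 for day 7 against day 3, and 3 in place of 9 for day 7 against day 5, where let-7d-5p (-0.0886), let-7e-5p (-0.0349), let-7f-5p (-0.117), let-7g-5p (-0.0806), let-7i-5p (-0.183) and miR-98-5p (-0.16) turned, as did let-7i-5p against day 3 (-0.0665). Centring on the median of miRNAs averaging at least 10, chosen after seeing the data, gave 4 calls on day 5, 9 for day 7 against day 3 and 6 for day 7 against day 5. An intensity trend in the prior, or all 9 libraries in 1 fit, gave 2 calls on day 5. With no filter on low values 5 processing genes were called in place of 8 and 1 host transcript in place of 2. Lost were the calls of TUT4, DROSHA, DICER1 and MIRLET7A1HG. On the target list that setting ended the calls of IGF2BP3, DICER1, CDC34 and THBS1. It also ended the calls of let-7b-5p for day 7 against day 3, and of let-7b-5p, let-7e-5p and miR-98-5p against day 5. The cause was not tested. Leaving out each library in turn gave 0 to 1 member calls on day 5, 9 for day 7 against day 3 and 7 to 9 for day 7 against day 5, and let-7b-5p on day 5 ran from -0.0328 (without day 3 replicate 3) to 0.258. It gave 1 to 3 arm ratio calls on day 5 and 5 to 7 on day 7, and 13 to 15 target gene calls in place of 16. For LIN28B, HMGA2 and IGF2BP1 it gave 0 to 1 calls, since LIN28B then fails the filter of 3 libraries. For uncalled genes the sign turned for TUT7 (0.063), E2F5 (0.0123) and NR6A1 (0.0173) on library totals, and without single libraries for TUT7 (-0.041 to 0.0174) and MIRLET7BHG (-0.0362 to 0.12). TUT4 lost its call without day 5 replicate 2, while WDR82 (without day 3 replicate 3) and MIRLET7IHG (without day 5 replicate 3) gained one. All 150 alternative values of the shares moved by less than 1 SD. With 3 libraries a day, leaving 1 out or taking the median cannot move a mean by 1 SD. The changed denominator left the member shares as they were. Most of these outcomes were thus fixed in advance and show nothing about stability.

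Same-numbered replicates deviated together little, with correlations between -0.077 and 0.116 for small RNA and between -0.011 and 0.034 for the whole transcriptome, so the numbers were not taken as pairs. With the replicate number as a replicate block, 0, 9 and 9 members were called in the 3 comparisons, 1 arm ratio in place of 3 on day 5 and 6 in place of 7 on day 7, and 14 target genes in place of 16. Median centring, arm ratios and their alternatives were chosen after seeing the data. The reads behind each small RNA value are not given, so no limit from counting was set for them, and LIN28B rests on 4 to 31 reads per library.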
